A study of Arabidopsis thaliana with 14 samples.

Results

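The 6 genes described here encode small subunits of RNA polymerase II, the enzyme that transcribes protein-coding genes, in Arabidopsis thaliana. They are the paralogs NRPB6A and NRPB6B, the paralogs NRPB9A and NRPB9B, and the genes NRPB7 and NRPB12. Members were the genes of these names that a probe set of the deposited expression values named alone. Each of the 6 had 1 such probe set, out of 13350 genes that any probe set named alone. The loci are AT5G51940 for NRPB6A, AT2G04630 for NRPB6B, AT5G59180 for NRPB7, AT3G16980 for NRPB9A, AT4G16265 for NRPB9B and AT5G41010 for NRPB12.

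Each array held RNA of Ws-0 seeds at the linear-cotyledon stage, with embryos of 175 ± 11 µm, taken from siliques 1.6 to 1.9 cm long on plants 38 to 46 days old. Compartments were cut by laser from paraffin sections of tissue fixed in ethanol and acetic acid, and 2 to 5 ng of RNA was amplified for an Affymetrix ATH1 array. The 7 groups had 2 arrays each: the embryo proper, the endosperm's micropylar, cellularized and chalazal regions, the chalazal and the general region of the seed coat, and whole seeds. The titles name laser capture for the whole seeds too. All groups shared the ecotype and the stage, and no mutant or treatment was among them. The micropylar endosperm arrays carry a description field that speaks of whole seeds, and the series' design text repeats that group while omitting chalazal endosperm. Arrays of both groups were taken as their titles name them. The labels call the replicates biological without naming the plants behind them, so p-values cover the spread between these samples only.

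The large and the small subunits of the polymerase form 1 complex, in which the small subunits stabilise the enzyme and link it to initiation and elongation factors. Plants also have Pol IV and Pol V, polymerases of RNA-directed DNA methylation that arose from Pol II and share many of its small subunits. RefSeq lists Pol IV or Pol V names as synonyms for NRPB6A, NRPB6B, NRPB9A, NRPB9B and NRPB12, and none for NRPB7. A transcript level of the shared subunits therefore belongs to no single polymerase.

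The tissue labels were checked against marker genes. Summed signal of 4 measured embryo markers ran from 3636 to 3734 in embryo arrays, from 1188 to 1358 in cellularized endosperm, from 1313 to 1378 in whole seeds and from 135 to 443 in the remaining groups. In cellularized endosperm most of that sum was PHV, at 1023 and 1228, while YAB3 stood at 93.5 and 5.87 there, against 2331 and 2486 in the embryo. The 2 measured seed coat markers, BAN and DFR, summed to between 14628 and 15576 in chalazal seed coat, between 7185 and 8436 in general seed coat, between 1006 and 1047 in chalazal endosperm, between 720.1 and 917 in micropylar endosperm, between 77.0 and 168 in cellularized endosperm, between 1412 and 2498 in whole seeds and between 18.2 and 30.3 in the embryo. Measured here means that the platform annotation named the gene alone on a probe set. Only 3 of 8 endosperm markers were so measured, and their signals were low. The others were not shown to be absent from the array. MPC reached 126 and 146 in chalazal endosperm. In micropylar (38.9 and 2.69) and cellularized endosperm (27.5 and 7.57) it overlapped its values in chalazal seed coat (26.9 and 7.64). AGL62 was highest on a chalazal seed coat array, at 59.5, and IKU2 on a whole seed array, at 99.8. Endosperm identity could therefore be checked only weakly for the chalazal region, and not for the micropylar and cellularized regions. Correlation between replicates was 0.851 to 0.914, array medians ran from 106.5 to 183.0, and the 3' to 5' ratio of the GAPDH control probes, a measure of RNA integrity and amplification, was highest in chalazal endosperm, at 13.7 and 8.34, and lowest in whole seeds, at 3.18 and 2.72.

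**Figure D1:**
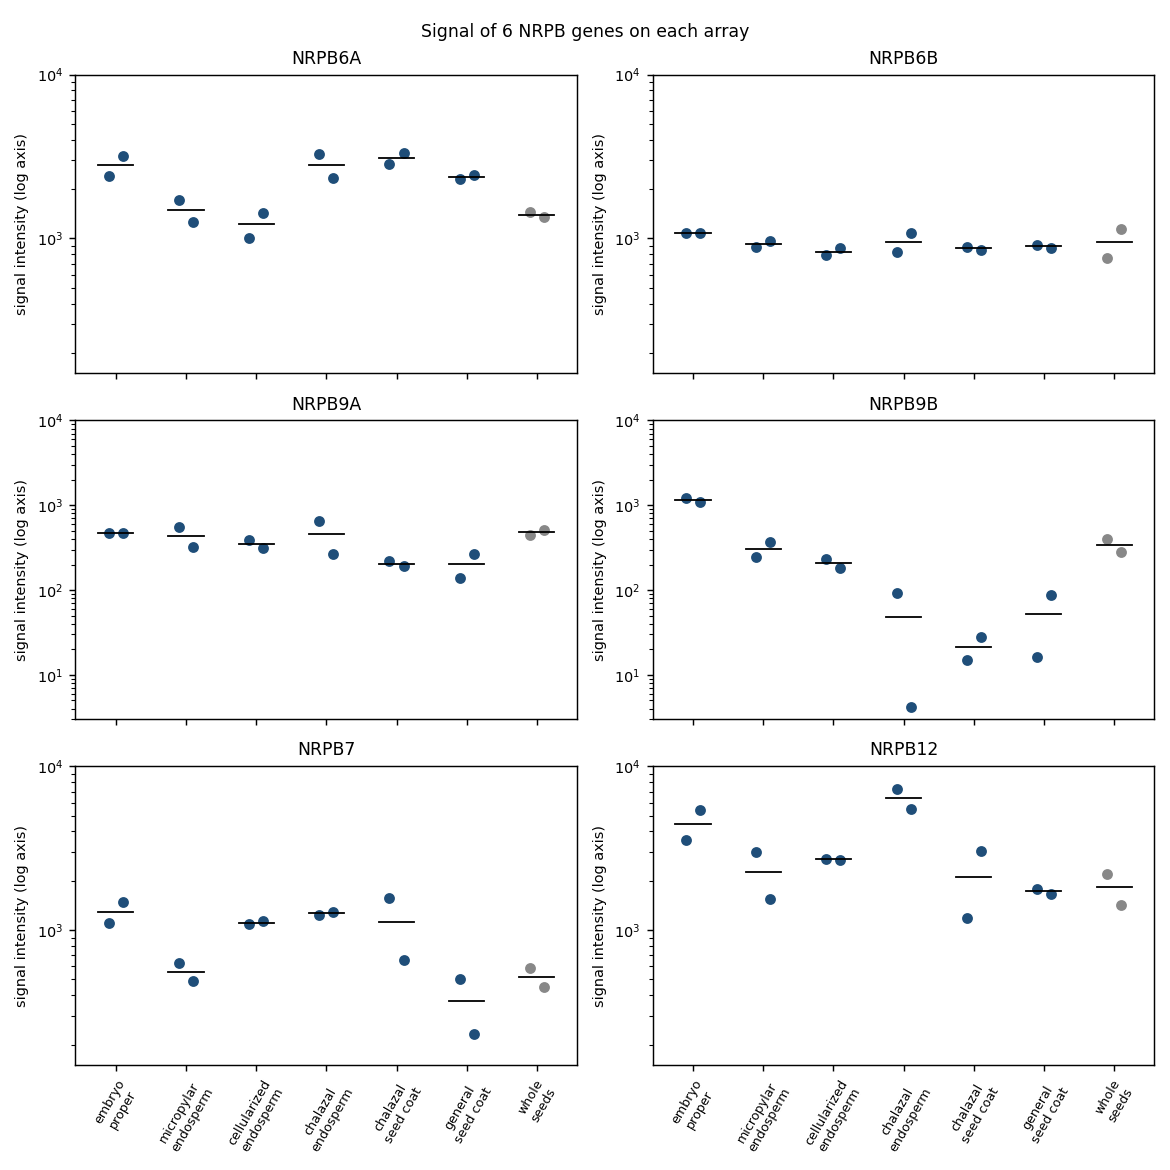
Signal intensity (log axis) of the 6 genes on each of the 14 arrays, one panel per gene and one position per group, with a point per array. NRPB9B spans from 4.13 to 1211, while NRPB6B stays between 760 and 1145 on every array.

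Across the 7 groups NRPB9B, NRPB6A, NRPB7 and NRPB12 varied, and NRPB9A and NRPB6B did not pass the test. Whether the paralogs of a pair differed in this was tested on their ratio. The limma F test, adjusted by Benjamini-Hochberg over 15951 tested probe sets, called NRPB6A (adjusted p = 0.00498), NRPB7 (adjusted p = 0.00935), NRPB9B (adjusted p = 0.00016) and NRPB12 (adjusted p = 0.00424). It did not call NRPB6B (adjusted p = 0.976) or NRPB9A (adjusted p = 0.182). Among all tested probe sets 63.5% were called, so 4 of 6 is near the background. The range between the highest and the lowest compartment mean, on the log2(signal + 16) scale, was 0.37 for NRPB6B, a smaller range than all but 0.069% of tested probe sets had. It was 1.24 for NRPB9A, 1.34 for NRPB6A, 1.86 for NRPB7, 1.86 for NRPB12 and 4.98 for NRPB9B, against a median of 2.48 over all tested probe sets. Of the 6 genes, NRPB9B alone lay above that median, with 89.7% of tested probe sets below it.

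NRPB9B encodes a form of the ninth subunit, which in yeast takes part in start-site choice, elongation and transcript fidelity. In Arabidopsis NRPB9A and NRPB9B overlap in function, and NRPB9B has been linked to RNA-directed DNA methylation. The NRPB9B signal was 1211 and 1084 in embryo arrays. It was 242 and 371 in micropylar endosperm, 234 and 181 in cellularized endosperm, and 92.3 and 4.13 in chalazal endosperm. In the seed coat it was 14.8 and 28.3 in the chalazal part and 16.2 and 88.1 in the general part, and whole seeds had 402 and 278. Both embryo arrays lay above all other arrays, and the chalazal endosperm and both seed coat parts formed the low end, below micropylar endosperm, cellularized endosperm and whole seeds without overlap. On all 6 arrays of that low end NRPB9B stood below the array median, so sizes of change against these groups depend on the 16 added before taking logs. In the embryo NRPB9B was higher than the mean of the other 5 compartments on the log2(signal + 16) scale (3.64, SE 0.60, limma adjusted p = 0.000193). A call here and below means an adjusted p below 0.05 and at least 2-fold. NRPB9B was the 1 of the 6 genes called higher in the embryo, where 15.1% of tested probe sets were called higher, so the count over the 6 genes is near the background. The call held under all alternatives, with a change of 2.94 to 4.14, and without any 1 array, with 3.40 to 3.88.

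NRPB9B was lower in chalazal seed coat than in the other 5 compartments (-2.33, SE 0.60, limma adjusted p = 0.00716) and lower in chalazal endosperm (-1.92, SE 0.60, limma adjusted p = 0.0160). Each call was lost without 1 array, which left 1 array in the group. Without chalazal endosperm replicate 2, the array at 4.13, the change there shrank to -0.71. Without chalazal seed coat replicate 1 the change in chalazal seed coat was still -2.07, and both arrays of that group were low, at 14.8 and 28.3. The share of tested probe sets called lower was 12.7% in chalazal seed coat and 22.9% in chalazal endosperm. In general seed coat the change was -1.55 and was not called (adjusted p = 0.0863). These comparisons share group means, so the high embryo level enters each of them, and they are not independent. Between pairs of groups NRPB9B was called in 11 of 21, against 23% over all pairs and tested probe sets. The 3 pairs of the embryo with chalazal endosperm (4.64), chalazal seed coat (4.98) and general seed coat (4.33) and the pair of chalazal seed coat with whole seeds (-3.25) were called under every alternative and without any 1 array. The sizes moved between alternatives from 3.55 to 5.71, from 3.83 to 5.74, from 3.45 to 4.87 and from -3.96 to -2.23. In the order of levels, neighbouring groups did not differ by a call: the embryo stood 1.73 above whole seeds (adjusted p = 0.150) and cellularized endosperm 1.94 above general seed coat (adjusted p = 0.0929). The summed embryo markers were highest in the embryo too. They were 1313 to 1378 in whole seeds, 205 to 443 in micropylar endosperm and 1188 to 1358 in cellularized endosperm. In the groups with low NRPB9B they were 135 to 183 in chalazal endosperm, 398 to 426 in chalazal seed coat and 258 to 302 in general seed coat. Most of the sum was PHV in cellularized endosperm, at 1023 and 1228, and in chalazal seed coat, at 407 and 324. YAB3 was at most 93.5 in any compartment other than the embryo, and 26.8 and 10.6 in micropylar endosperm. The part of these markers in the NRPB9B order was not tested. In such bulk samples a smaller share of cells that express a gene and less RNA per cell cannot be told apart.

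NRPB9A encodes the other form of the ninth subunit. Its signal was 475 and 476 in embryo arrays, 546 and 318 in micropylar endosperm, 384 and 317 in cellularized endosperm, 653 and 266 in chalazal endosperm, 221 and 190.4 in chalazal seed coat, 137 and 265 in general seed coat, and 442 and 513 in whole seeds. The 4 seed coat arrays held the lowest values, and the highest of them differed little from the lower chalazal endosperm array. No compartment was called against the other 5, with changes of -0.85 to 0.64, and 0 of the 21 pairs of groups were called, the smallest adjusted p being 0.101. Over the 14 arrays the log signals of NRPB9A and NRPB9B had a Pearson r of 0.70 and a Spearman rho of 0.66, a description across arrays of 7 groups that share their scaling.

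The levels of different probe sets cannot be compared, since their probes bind differently, but a change in their ratio between groups can. The log2 ratio of NRPB9A to NRPB9B was 4.46 higher in chalazal endosperm, where it was highest, than in the embryo, where it was lowest. NRPB9B was below the array median at the high end, and the span was 5.53 with a pseudocount of 1 and 3.40 with one of 64. An exact permutation test of the F statistic over all 135135 splits of the arrays into 7 pairs gave p = 0.00152, or 0.00305 adjusted over both paralog pairs, and the pooled SD within groups was 0.59. Relative to the mean of the 7 groups, the ratio was -2.47 and -2.31 in embryo arrays, between -1.37 and -0.028 in micropylar endosperm, between -0.47 and -0.40 in cellularized endosperm, between 1.48 and 2.66 in chalazal endosperm, between 1.07 and 1.79 in chalazal seed coat, between 0.28 and 1.10 in general seed coat and between -1.02 and -0.31 in whole seeds. Both embryo arrays lay below all others, and all 6 arrays of the chalazal endosperm and seed coat lay above the rest. With 1 compartment set against the other 5 the smallest two-sided p that the 66 splits allow is 0.0152. The embryo reached it (difference -3.01, adjusted p = 0.182 over 12 tests). Since 1 compartment per pair can reach that p, no compartment could pass 0.05 after adjustment, and the test says nothing on which compartment differed.

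**Figure D2:**
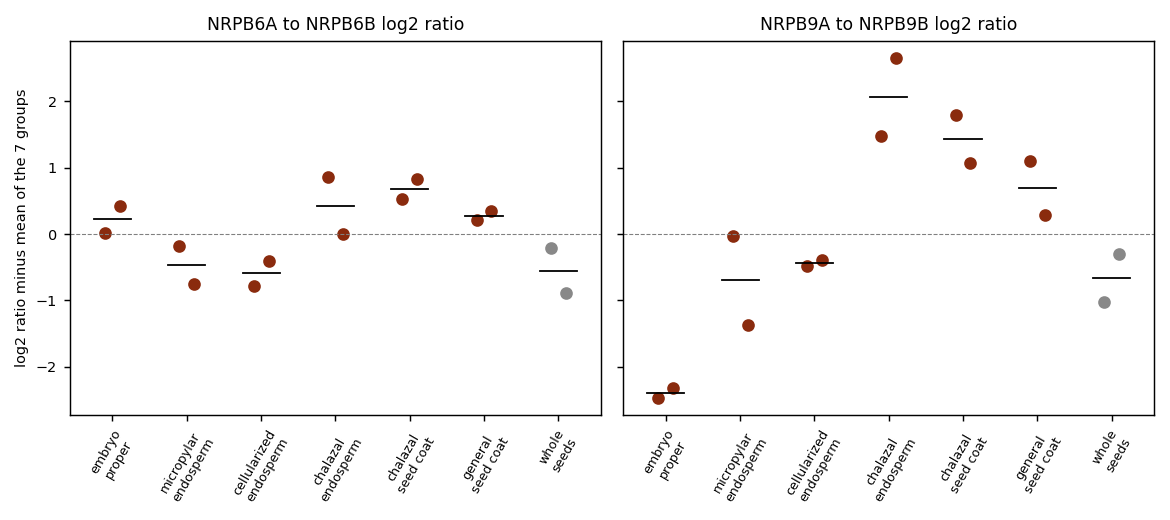
Log2 ratio of NRPB6A to NRPB6B and of NRPB9A to NRPB9B by group, each minus its mean over the 7 groups, with a point per array. The NRPB9A to NRPB9B ratio is lowest in the embryo, at -2.47 and -2.31, and highest in chalazal endosperm, at 1.48 and 2.66.

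NRPB6A and NRPB6B encode forms of the sixth subunit, which in yeast is common to all nuclear RNA polymerases and helps to assemble them. The NRPB6A signal was 2405 and 3179 in embryo arrays, 1712 and 1258 in micropylar endosperm, 1008 and 1436 in cellularized endosperm, 3288 and 2339 in chalazal endosperm, 2831 and 3322 in chalazal seed coat, 2319 and 2451 in general seed coat, and 1443 and 1344 in whole seeds. Values in the embryo, chalazal endosperm and both seed coat parts lay above all values in the other 3 groups. In cellularized endosperm NRPB6A changed by -0.997 against the other 5 compartments (SE 0.26, limma adjusted p = 0.0114), which fell just short of 2-fold and was not called. In the 6 other comparisons it had no adjusted p below 0.05. Between pairs of groups it was called in 5 of 21, near the share of 23% over all pairs and tested probe sets. All 5 lost the call without some array. Cellularized endosperm against chalazal seed coat (-1.34, limma adjusted p = 0.00524) lost it without 1 array, cellularized endosperm replicate 1 (-1.09, adjusted p = 0.0669).

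NRPB6B had a signal of 1080.2 and 1079 in embryo arrays, 880.4 and 969 in micropylar endosperm, 791 and 871 in cellularized endosperm, 820.4 and 1072 in chalazal endosperm, 889 and 847 in chalazal seed coat, 914 and 875 in general seed coat, and 759.9 and 1145 in whole seeds. The highest and the lowest of the 14 values both belonged to whole seeds, and they differed 1.51-fold. The change in each compartment lay between -0.17 and 0.27, and 0 of 21 pairs were called, with a smallest adjusted p of 0.559. NRPB6A and NRPB6B log signals had a Pearson r of 0.13 and a Spearman rho of -0.0066 over the 14 arrays. Their log2 ratio spanned 1.28, or 2.42-fold, between chalazal seed coat and cellularized endosperm. The exact permutation test gave p = 0.0555 for it (adjusted p = 0.0555). The permutation test passed with the replicate block (adjusted p = 0.0465) and without the chalazal endosperm (adjusted p = 0.0339), so the call depends on the fit. For the block, replicate means were subtracted and all splits kept, so its p is not exact. Within groups the pooled SD of the ratio was 0.37.

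NRPB7 encodes a subunit that in yeast forms, with Rpb4, a stalk on the polymerase that contacts the new RNA. Its signal was 1103 and 1490.2 in embryo arrays, 629.9 and 487 in micropylar endosperm, 1086 and 1133 in cellularized endosperm, 1241 and 1294 in chalazal endosperm, 1573 and 654 in chalazal seed coat, 502 and 231 in general seed coat, and 584 and 452 in whole seeds. The embryo, cellularized endosperm, chalazal endosperm and chalazal seed coat arrays all lay above those of micropylar endosperm, general seed coat and whole seeds. Chalazal seed coat held the highest of all arrays, at 1573, and also the one closest to the low groups, at 654. In general seed coat NRPB7 fell by 1.51 against the other 5 compartments on the log2 scale (SE 0.37, limma adjusted p = 0.00732), where 5.69% of tested probe sets were called lower. Without general seed coat replicate 2, the array at 231, the change was -0.98 (adjusted p = 0.231). Scaling the arrays to equal medians raised the share called lower there to 9.11% and kept this call. Of 21 pairs NRPB7 was called in 5, near the share of 23% over all pairs and tested probe sets. Of these 5, 4 involved general seed coat and the fifth was chalazal endosperm against whole seeds. Each of those 4 lost its call without general seed coat replicate 2, with adjusted p of 0.0848 to 0.290, and the fifth without any of 6 single arrays.

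Counterparts of the stalk subunit in the other plant polymerases were also measured. NRPE7, of Pol V, had 706 and 423 in embryo arrays, 83.6 and 2.79 in chalazal endosperm and between 62.1 and 340.3 in the other compartments. Both embryo arrays lay above all other compartment arrays. NRPE7 was called higher in the embryo (2.02, SE 0.59, limma adjusted p = 0.0137) and lower in chalazal endosperm (-2.42, SE 0.59, adjusted p = 0.00292). The embryo call ended without embryo replicate 1 (1.66, adjusted p = 0.196) or replicate 2 (2.38, adjusted p = 0.0598) and with a pseudocount of 1 (2.35, adjusted p = 0.0501), and the call in chalazal endosperm without its replicate 2 (-1.22, adjusted p = 0.180). NRPD7, of Pol IV, ran from 74.1 to 744 in the compartments and was not called in any of the 7 comparisons.

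NRPB12 encodes the smallest subunit, a zinc-binding protein that in yeast is common to all nuclear RNA polymerases. Its signal was 3536 and 5403 in embryo arrays, 3003 and 1546 in micropylar endosperm, 2722 and 2684 in cellularized endosperm, 7269.8 and 5458 in chalazal endosperm, 1192 and 3044 in chalazal seed coat, 1777 and 1672 in general seed coat, and 2208 and 1433 in whole seeds. Both chalazal endosperm arrays lay above all others, and both embryo arrays above the rest. In chalazal endosperm NRPB12 was 1.37 higher than in the other 5 compartments on the log2 scale (SE 0.33, limma adjusted p = 0.00253), and 15.8% of tested probe sets were called higher there. Without chalazal endosperm replicate 1 the change was 1.17 (adjusted p = 0.0630). The GAPDH 3' to 5' ratio was highest on that same array, and its part in the result was not tested. In the embryo the change was 0.74 and was not called (adjusted p = 0.0924). Of 21 pairs 8 were called, against 23% over all pairs and tested probe sets. Chalazal endosperm against general seed coat (1.86, adjusted p = 0.00215) and against whole seeds (1.81, adjusted p = 0.00239) were called under every alternative and without any 1 array.

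**Figure D3:**
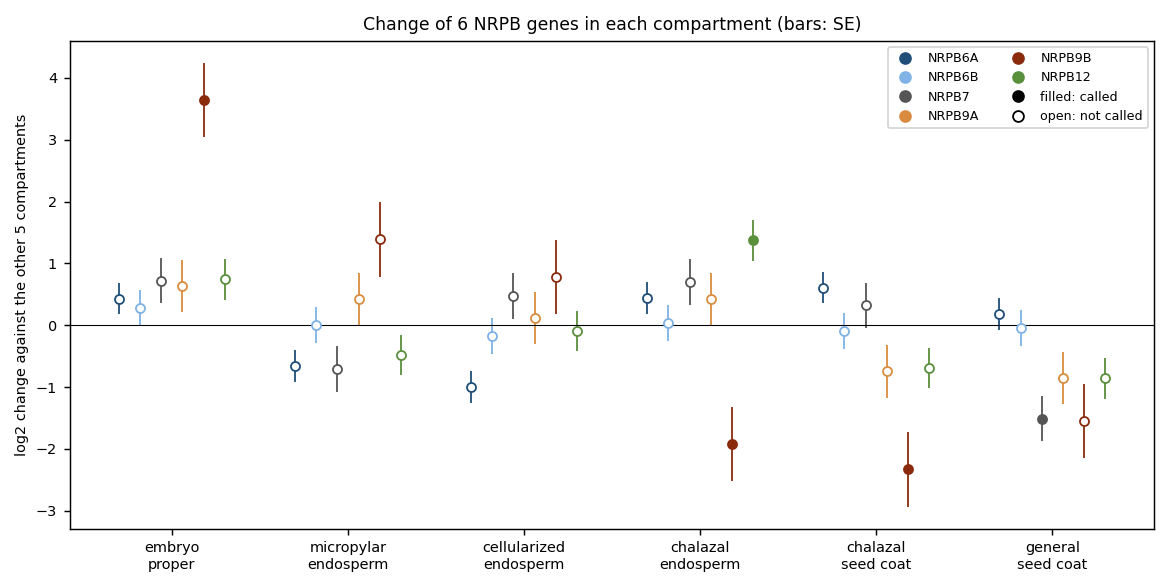
Log2 change of the 6 genes in each compartment against the other 5, with bars of 1 SE, filled where called and open where not. NRPB9B stands at 3.64 in the embryo, -1.92 in chalazal endosperm and -2.33 in chalazal seed coat, NRPB12 at 1.37 in chalazal endosperm and NRPB7 at -1.51 in general seed coat.

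Set side by side, NRPB9B was the called member in the embryo and in chalazal seed coat, and NRPB7 in general seed coat. The number of called members was near or below the share of all tested probe sets in each compartment. In chalazal endosperm NRPB12 was higher and NRPB9B lower, where 38.7% of tested probe sets were called in either direction, the largest share of the 6 compartments. In the embryo and in general and chalazal seed coat 1 member each was called, against 28.4%, 16% and 26.2% of tested probe sets. In micropylar and cellularized endosperm 0 members were called by limma, against 18% and 16.5%, and 2 and 1 members had an unadjusted p below 0.05. Whole seeds, set against the mean of the 6 compartments, had 0 called members against 9.74%, and 2 with an unadjusted p below 0.05. Over the 21 pairs of groups the 6 genes together had 29 calls, near the share of 23% over all pairs and tested probe sets. The median change of the 6 genes was 0.68 in the embryo, against -0.012 over all tested probe sets, and -0.86 in general seed coat, against -0.010. It was 0.43 in chalazal endosperm, against -0.12, and -0.39 in chalazal seed coat, against -0.0032. In micropylar endosperm it was -0.23, against -0.0038, in cellularized endosperm 0.017, against -0.078, and in whole seeds -0.30, against 0.22.

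Few of the other polymerase genes listed for comparison had a probe set that the annotation named for them alone. In chalazal endosperm the genes called higher were 0 of 2 Pol IV and Pol V subunits, 3 of 4 Pol I and Pol III subunits, and 4 of 6 Pol II general and elongation factors. There 1 gene, NRPE7, was called lower. Of all tested probe sets 15.8% were called higher there and 22.9% lower. The median change was 1.52 for the Pol I and Pol III list and 1.15 for the factors, against -0.12 over all tested probe sets. A further factor, SPT5-1, is left out of these counts, since it was at or above the array median on the 2 chalazal endosperm arrays alone and entered the test through them. SPT5-1, a form of the elongation factor that travels with Pol II, had 1160 and 907 in chalazal endosperm and at most 122 elsewhere, given here as a description. Its partner SPT4-1 had 684 and 631 there and at most 194 elsewhere. SPT4-1 was called higher (2.74, SE 0.63, limma adjusted p = 0.00191), also without any 1 array. The locus AT1G61700 among the listed Pol II subunits, which the tables leave without a symbol, had 922 and 1346 in chalazal endosperm and at most 185 elsewhere. It was at or above the array median on 3 arrays, 2 of them of chalazal endosperm, and would not have been tested without these. AT1G61700 is therefore left out of the counts as well and given as a description. IYO (2.31), NRPA1 (1.91) and NRPC2 (1.18) were called as well, at limma adjusted p of 0.0352, 0.0167 and 0.0499. Each of these 3 lost its call without chalazal endosperm replicate 1, with adjusted p of 0.384, 0.129 and 0.243. NRPA1 lost it also without replicate 2 (adjusted p = 0.0854), and IYO without embryo replicate 1, cellularized endosperm replicate 2, chalazal seed coat replicate 2 or general seed coat replicate 1 (adjusted p of 0.0525 to 0.0546). NRPC2 kept its call without chalazal seed coat replicate 1 or general seed coat replicate 1 and lost it without any of the other 12 arrays. NRPC2 also lost it with pseudocounts of 1 or 64, with no filter, without whole seeds and without the micropylar endosperm, and IYO with a pseudocount of 1 and with no variance trend (adjusted p = 0.0781 and 0.0631). The factors AT1G75510 (1.27, limma adjusted p = 0.000303) and AT4G20330 (1.03, limma adjusted p = 0.00616), unnamed in the tables, were called higher too, and both stood below 2-fold without chalazal endosperm replicate 2 (0.92 and 0.98). AT4G20330 did so also without cellularized endosperm replicate 1 (0.98) or chalazal seed coat replicate 1 (0.93), with quantile normalization (0.95) and without the micropylar endosperm (0.92).

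NRPA2, the second-largest subunit of Pol I, which transcribes ribosomal RNA genes, had 1271 and 1650 in embryo arrays, 1959 and 1512 in chalazal endosperm and 102 and 406 in chalazal seed coat. It lay between 268 and 714 in the remaining groups. It was called higher in chalazal endosperm (1.85, limma adjusted p = 0.00215) and in the embryo (1.56, limma adjusted p = 0.0102) and lower in chalazal seed coat (-1.70, limma adjusted p = 0.00614). The call in chalazal endosperm held without any 1 array. The embryo call ended without embryo replicate 1 (adjusted p = 0.0645) or 2 (adjusted p = 0.142), and that in chalazal seed coat without its replicate 1 (-0.78, adjusted p = 0.268). In the embryo the listed genes called higher were NRPE7, 1 of 2 Pol IV and Pol V subunits, and NRPA2, 1 of 4 Pol I and Pol III subunits. The listed Pol II genes tested were 1 subunit and 7 factors, and none was called higher there. Among them AT1G61700 and SPT5-1 would not have been tested without the chalazal endosperm arrays. Of all tested probe sets 15.1% were called higher there, and so few genes cannot be told apart from that share. Elsewhere the calls were AT1G75510 higher in chalazal seed coat (1.30, limma adjusted p = 0.0004), where 13.6% of tested probe sets were called higher, AT1G03280 higher in cellularized endosperm (1.38, limma adjusted p = 0.00452), against 8.18%, and AT4G20330 lower in whole seeds (-1.65, limma adjusted p = 0.000744), against 2.79%. The AT1G03280 call ended without cellularized endosperm replicate 1 (1.20, adjusted p = 0.107).

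**Figure D4:**
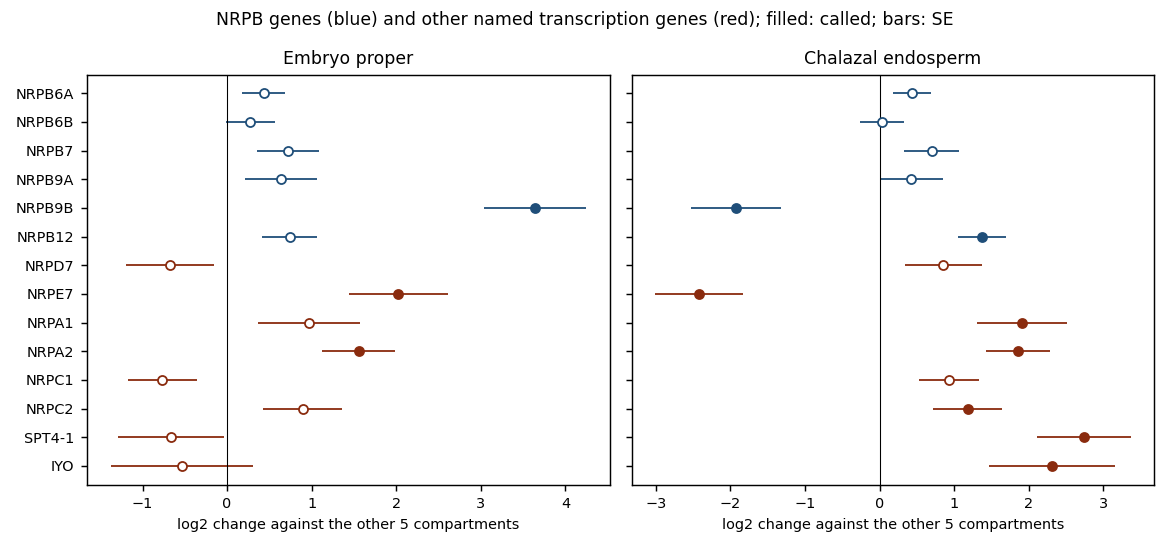
Log2 change against the other 5 compartments of the 6 NRPB genes (blue) and of other named transcription genes (red), in panels for the embryo proper and the chalazal endosperm, with bars of 1 SE and filled points where called. In the chalazal endosperm panel SPT4-1 stands at 2.74 and NRPA2 at 1.85, while NRPB9B stands at -1.92.

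For each gene the 3 most similar of 1198 named genes were found by Pearson r of the log signals over the 14 arrays, which measures likeness only. For NRPB9B they were rpoB (r = 0.93), GSO1 (r = 0.93) and SCN1 (r = 0.90). The first encodes a subunit of the plastid-encoded RNA polymerase, and its signal averaged 7008 ± 111 in the embryo, 4157 ± 76.3 in micropylar endosperm, 2317 ± 561 in cellularized endosperm, 1337 ± 638 in chalazal endosperm, 1193 ± 13.8 in chalazal seed coat, 1738 ± 286 in general seed coat and 3807 ± 589 in whole seeds (SD, n = 2 each). For NRPB12 they were NRPA2 (r = 0.87), CHR23 (r = 0.85) and RBL (r = 0.83). For NRPB7 they were MED19A (r = 0.88), a subunit of Mediator, NIH (r = 0.82) and I-2 (r = 0.82). MED19A averaged 2892 ± 1154 in chalazal seed coat, 2451 ± 1115 in chalazal endosperm and 389 ± 276 in general seed coat. NRPB6A was most like LSM3A (r = 0.77), EIN3 (r = 0.76) and MAP1B (r = 0.76). NRPB9A was most like UGT78D2 (r = 0.86), ATIM (r = 0.78) and UGT84A1 (r = 0.73). For NRPB6B, whose signal hardly varied, they were STOMAGEN (r = 0.77), PDF2.5 (r = 0.67) and TTL (r = 0.67).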

How the data were processed

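For each probe set the authors deposited a linear signal intensity on 14 one-colour ATH1 arrays of 7 groups. Per the submitters' processing notes they came from GCOS, whose version is not given in the sources used here. In each array the mean without the lowest and highest 2% was 500.0 to 500.1, so the authors scaled arrays to a common mean. The number of arrays limits precision.

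The analysis took log2(value + 16). Of 22746 probe sets other than controls, 15951 at or above their array's median on at least 2 arrays were tested. Linear models were fitted in R 4.3.3 by limma 3.58.1, with a variance trend, 1 mean per group and 7 residual degrees of freedom, and were tested on simulated data. Calls needed a Benjamini-Hochberg adjusted p below 0.05 over all tested probe sets and a 2-fold change, and for the F test the adjusted p alone. All p-values are two-sided, apart from the F tests. Paralog log ratios were compared by exact permutation, which is only approximate with the replicate block.

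Probe sets were named through the platform annotation, in which 13513 name 1 gene, 503 several and 8794 none, and all 6 members matched RefSeq by gene ID. The text names all members, their 3 most similar genes with a symbol, and listed genes with a call, up to 5 per list and comparison. Members and lists were chosen with earlier results of these data known. Alternatives changed the pseudocount, filter, scaling, variance trend, replicate block and arrays used.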

Additional observations from a re-analysis of the deposited data

How the results depend on the processing

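With 2 arrays per group, each call rests on few values. The number of called members stayed within 1.5 times the reported count in most settings, with these exceptions. In cellularized endosperm 1 gene, NRPB6A, was called, against 0 reported, with a pseudocount of 1 (-1.01), with quantile normalization (-1.01) and without the micropylar endosperm (-1.17), a setting chosen after seeing the data because of the conflicting label. In general seed coat 2 genes were called, against 1, with a pseudocount of 64 (NRPB9B, -1.20), with arrays scaled to equal medians (NRPB12, -1.10) and without the chalazal endosperm (NRPB9B, -2.02). In whole seeds 1 gene was called at equal medians (NRPB6A, -1.05), against 0. Without the chalazal endosperm 2 genes were called in the embryo (NRPB12 added, 1.06) and 3 genes by the F test, with NRPB12 lost (adjusted p = 0.0884). Calls of a gene in a pair of groups then numbered 18, against 29, of which 12 involved the chalazal endosperm and could not be made. Without the chalazal endosperm, and with the replicate block, the NRPB6A to NRPB6B ratio span of 1.28 passed its permutation test. The adjusted p was 0.0339 and 0.0465, the second not exact. The cause of the other shifts was not tested.

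Without each array in turn, called members numbered 4 by the F test, 1 in the embryo, 0 to 1 in micropylar and in cellularized endosperm, 1 to 2 in chalazal endosperm, 0 to 2 in chalazal and in general seed coat and 0 in whole seeds. The ratio spans ran from 1.13 to 1.57 and from 3.87 to 5.05. Under the other settings they ran from 1.25 to 1.37 and from 3.40 to 5.53, the second following the pseudocount. Of 29 pair calls, 6 held without any 1 array. Signs of uncalled changes turned without 1 array for NRPB12 (-0.22 to 0.047) and NRPB9A (-0.013 to 0.25) in cellularized endosperm, NRPB6B in micropylar endosperm (-0.060 to 0.077), chalazal endosperm (-0.16 to 0.22) and whole seeds (-0.27 to 0.31), NRPB9A in chalazal endosperm (-0.20 to 1.05) and NRPB7 in chalazal seed coat (-0.30 to 0.95).

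At equal medians they turned for NRPB6B in micropylar endosperm (-0.10; -7.3e-05 with quantile normalization), cellularized endosperm (0.094) and whole seeds (-0.40), for NRPB12 in cellularized endosperm (0.18; 0.19 without the chalazal endosperm) and for NRPB6A in general seed coat (-0.065). That scaling moved the median change of all tested probe sets in whole seeds to -0.18, against 0.22, in general seed coat to -0.23, against -0.010, in cellularized endosperm to 0.18, against -0.078, and in chalazal endosperm to 0.10, against -0.12. It moved the share of calls that were higher to 32.2% against 71.3%, 47.8% against 64.5%, 65.1% against 49.5% and 50.8% against 40.7% in the same order. Whether replicate numbers pair the samples is unknown. Deviations of same-numbered arrays correlated between -0.11 and 0.15 over the 21 pairs of groups, which cannot show whether they shared plants. The replicate block changed no call of a member in a compartment, and ended 2 pair calls, NRPB9B in the embryo against cellularized endosperm (adjusted p = 0.0519) and NRPB12 in the embryo against whole seeds (adjusted p = 0.0536).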
